A study of Mus musculus with 4 samples.

Results

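The genes studied here encode 9 proteins of the silencing pathway built on methylation of lysine 9 of histone H3 (H3K9). They are the autosomal H3K9 methyltransferases Setdb1, Setdb2, Ehmt1, Ehmt2 and Suv39h2, the HP1 genes Cbx1, Cbx3 and Cbx5, and Trim28. The genes were chosen by their known function, by symbol, and each was found in 1 row, giving 9 of the 33708 rows of the table analysed. Suv39h1, on the X chromosome, was not analysed here because the table holds autosomes alone.

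In this pathway a methyltransferase adds methyl groups to H3K9, and HP1 proteins bind the methylated histone through their chromodomain and in turn recruit further silencing factors. KRAB zinc finger proteins bring TRIM28 to particular DNA sequences, and TRIM28 brings SETDB1. The pathway keeps repeats, retrotransposons, imprinted genes and germ line genes silent in embryonic tissues. SMCHD1, the protein mutated in this study, is a chromatin protein that also takes part in silencing, and LRIF1, a protein that binds HP1, is a known partner of SMCHD1.

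The frontonasal prominence (FNP), the part of the embryonic face that forms the nose and snout, was dissected along its border with the maxillary prominence from FVB/NJ mouse embryos at E10.5, all of 29 somites. The WT group was Smchd1+/+ and held 2 embryos, 1 female and 1 male per the labels. The MommeD43 group (MD43) was Smchd1MommeD43/MommeD43, that is homozygous for a chemically induced missense allele present in the germ line and so in every cell, and held 2 males. The second replicates of both groups shared a mother. Per the labels sex thus varied partly with genotype, and its part in the values was not tested. A table heading of the study names the second WT embryo as female instead, and if that holds, sex and genotype cannot be told apart. Poly(A) RNA was sequenced from 1 library per embryo, and the comparison asked which transcripts differ in level in the FNP between the genotypes.

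The unit was log2 RPKM, reads scaled for library size and for the length of the gene's exons, and the authors merged the 2 libraries of a genotype into 1 value. No value below therefore has a spread between embryos, no test between the genotypes was possible here, and no p-value is given. The values implied a depth per library of 22328791 reads in MD43 and 16055882 in WT, a ratio of 1.39. Reads given for a gene are the geometric mean of the 2 libraries of a genotype, recovered from the values. The error after a difference is the smallest standard error that counting these reads allows (counting SE), without the variation between embryos. Differences are MD43 minus WT on the log2 RPKM scale. Calls of size use 1.5-fold, a log2 difference of 0.585. Frontonasal mesenchyme genes were present, with reads for 12 of 12 listed genes and summed levels of 182 RPKM in MD43 and 184 RPKM in WT. Other tissues were less even between the genotypes. All 10 surface ectoderm genes were higher in MD43 (summed level 204 against 131 RPKM) and all 6 red blood cell genes were higher (5817 against 3059 RPKM). Of 10 diencephalon and optic vesicle genes with enough reads, 9 were lower in MD43, among them Rax at -2.17 ± 0.24 (counting SE), although the summed level was 79.8 against 75.6 RPKM because Lhx2 was higher. Of the 15485 genes reaching 10 reads in either genotype, 51.1% were higher in MD43 and 48.9% lower. The tissue lists were chosen with earlier results of these data known. In such bulk samples fewer cells of a type cannot be told apart from less RNA per cell. Smchd1 itself (ENSMUSG00000024054) had a level of 3.30 in MD43 against 3.31 in WT (4390 and 3185 reads), a difference of -0.01 ± 0.02 (counting SE). A missense change alters the protein, so this level does not check the genotype labels.

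The 9 genes differed little between WT and MD43 FNPs. None of the 9 lay past 1.5-fold, against a background of 10.7% of the 15485 genes reaching 10 reads in either genotype and 0.863% of the 3938 genes reaching 1000 reads in each (well covered genes). Setdb2 alone lay past 1.2-fold, against 31.0% and 8.96% in these backgrounds, and with a pseudocount of 1 RPKM its difference was 0.21 and no longer past that limit. The differences ran from -0.06 for Suv39h2 to 0.28 for Setdb2, with 5 genes higher in MD43, 4 lower and a median of 0.05. The median over the 15485 genes was 0.01, with 51.1% of them higher and 48.9% lower. Among the 3938 genes of deeper coverage, which include each of the 9 but Setdb2, the median was 0.03, with 59.3% higher and 40.7% lower. In the counting error alone, the 95% interval of the difference lay above 0 for Trim28, Ehmt1, Ehmt2 and Setdb2, below 0 for Cbx5, and included 0 for Setdb1, Suv39h2, Cbx1 and Cbx3.

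The promoters of these genes are shown first, because the 9 were expressed over a wide range and their promoters had features in common that the choice of genes did not use. Windows from 250 bases before to 50 bases after the start of the RefSeq transcript (GRCm38.p6) were found for all 9. Their median GC content was 66.3%, against 52.7% over 32851 windows of the same length, and their median number of CpG dinucleotides was 29 against 7. The ratio of observed to expected CpG had a median of 0.89 in the 9 and 0.38 in all windows. The GC box GGGCGG, searched on both strands, was found in the windows of 8 of the 9 genes and in 35.7% of all windows. Setdb2 was the gene without one. CCAAT, on either strand, was found in the windows of Setdb1, Setdb2 and Cbx5, against 37.4% of all windows. The letters CCGGAAG, the core bound by ETS factors, were found in the window of Setdb1 and in 8.86% of all windows. TATAAA was in none of the 9 and in 13.6% of all windows. These matches describe letters, not bound sites, and a window without a match says nothing about the factor. All windows include those of genes with few or no reads here, so they are not a background of expressed genes.

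Windows are printed for the gene of the set with the highest level (Trim28, chr7:13023902-13024201, plus strand), the one with the lowest level and largest difference (Setdb2, chr14:59440831-59441130, minus strand) and the most abundant HP1 gene on the deposited scale (Cbx5, chr15:103239803-103240102, minus strand). Capitals mark the GC box or CCAAT on either strand.
Trim28: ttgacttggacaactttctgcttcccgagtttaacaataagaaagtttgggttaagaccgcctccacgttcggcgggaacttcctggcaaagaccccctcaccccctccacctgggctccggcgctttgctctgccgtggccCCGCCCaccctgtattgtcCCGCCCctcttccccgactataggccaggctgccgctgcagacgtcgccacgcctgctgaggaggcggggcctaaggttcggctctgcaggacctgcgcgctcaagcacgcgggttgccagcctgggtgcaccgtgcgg
Setdb2: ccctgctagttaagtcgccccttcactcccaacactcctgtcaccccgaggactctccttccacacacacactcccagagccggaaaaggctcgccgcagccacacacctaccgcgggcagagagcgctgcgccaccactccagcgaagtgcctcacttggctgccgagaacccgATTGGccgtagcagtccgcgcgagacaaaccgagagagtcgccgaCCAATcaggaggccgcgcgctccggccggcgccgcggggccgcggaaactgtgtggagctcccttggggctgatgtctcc
Cbx5: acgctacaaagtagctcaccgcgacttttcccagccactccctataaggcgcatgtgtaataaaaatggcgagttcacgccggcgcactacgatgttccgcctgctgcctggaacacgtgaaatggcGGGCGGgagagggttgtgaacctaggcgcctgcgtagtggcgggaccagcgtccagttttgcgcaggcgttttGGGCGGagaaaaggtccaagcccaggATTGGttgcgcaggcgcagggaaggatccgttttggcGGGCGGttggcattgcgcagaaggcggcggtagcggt
Trim28 carried 2 GC boxes and no CCAAT. Setdb2 carried no GC box and 2 copies of CCAAT, 1 on each strand, and Cbx5 carried 3 GC boxes and 1 CCAAT.

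**Figure D1:**
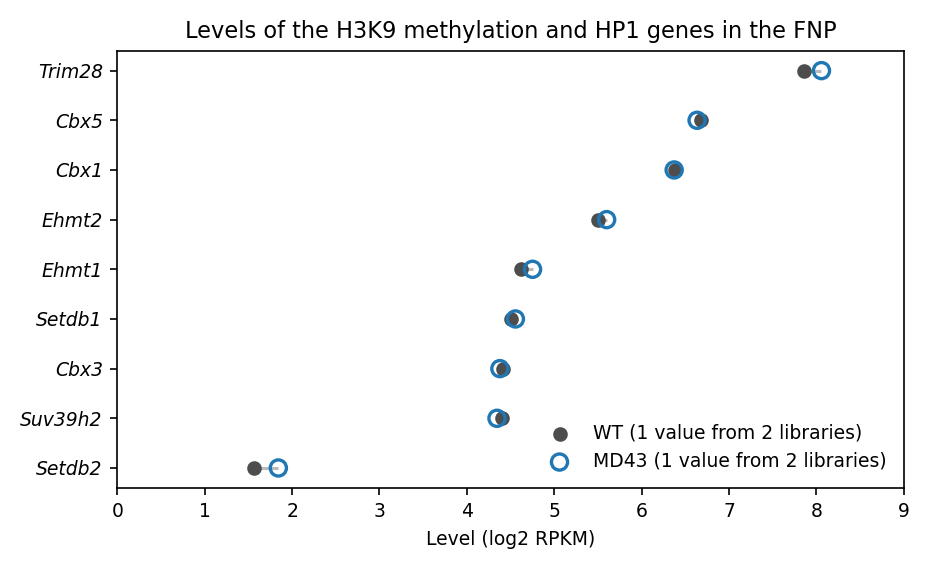
Level of each of the 9 genes in log2 RPKM (horizontal axis), ordered by the mean of both genotypes. Filled points are WT and open circles are MD43, each 1 value merged from 2 libraries. For every gene the 2 points lie close together compared with the range over all 9 genes, which runs from about 1.6 for Setdb2 to about 8.0 for Trim28.

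Per length of all annotated exons, as deposited, the order of the levels was the same in both genotypes. Per longest protein-coding transcript, Cbx1 passed Cbx5, and Ehmt2 and Cbx3 lay close together and changed places, at 6.05 and 6.04 on a log2 scale in MD43 and 5.95 and 6.08 in WT. On the deposited scale Trim28 was at or above the level of 99.3% of the 15485 genes and Cbx5 and Cbx1 of 97.7% and 97.2%. Next came Ehmt2 (93.8%), Ehmt1 (86.9%), Setdb1 (85.1%), Cbx3 (83.5%) and Suv39h2 (83.2%), and Setdb2 lay at 40.3%. Each step in this order was larger than its counting interval in both genotypes except that from Cbx3 to Suv39h2, a gap of 0.03 in MD43 and 0.01 in WT. The gap between Cbx3 and Suv39h2, and in WT that between Ehmt1 and Setdb1 (0.11), was smaller than a genotype difference of 1 of the genes involved.

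Among the methyltransferases, Ehmt2 and Ehmt1 encode G9a and GLP, which work as a pair and place mono- and dimethyl marks on H3K9 in euchromatin. Ehmt2 (ENSMUSG00000013787, GRCm38 chromosome 17, 34898469 to 34914052, plus strand) had a level of 5.60 log2 RPKM in MD43 against 5.50 in WT (5945 and 3994 reads). Its difference was 0.10 ± 0.02 (counting SE), in the middle of the 3938 well covered genes by size of difference. Ehmt1 (ENSMUSG00000036893, chromosome 2, 24789928 to 24919614, minus strand) stood at 4.75 in MD43 against 4.62 in WT (4883 and 3208 reads). Its difference of 0.13 ± 0.02 (counting SE) was matched or exceeded by 36.6% of the well covered genes. Both values of the pair were thus above 0, and that of Ehmt2 was 0.04 once corrected for GC content and length, barely outside its counting error. Their proportion hardly moved, and Ehmt1 made up 35.7% of the summed RPKM of the pair in MD43 and 35.2% in WT.

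Setdb1 encodes the trimethylating enzyme recruited by TRIM28, and Setdb2 encodes a related protein. Setdb1 (ENSMUSG00000015697, chromosome 3, 95323525 to 95357202, minus strand) was at 4.56 in MD43 against 4.51 in WT (3598 and 2508 reads), a difference of 0.05 ± 0.03 (counting SE). Suv39h2, one of a pair of enzymes that trimethylate H3K9 in pericentric heterochromatin, was the lowest of the differences. Suv39h2 (ENSMUSG00000026646, chromosome 2, 3455815 to 3475031, minus strand) was at 4.34 in MD43 against 4.40 in WT (2001 and 1498 reads), a difference of -0.06 ± 0.03 (counting SE). Neither difference was larger than its counting interval.

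Setdb2 (ENSMUSG00000071350, chromosome 14, 59402009 to 59440884, minus strand) had the lowest level and the largest difference of the set. It stood at 1.84 log2 RPKM in MD43 against 1.57 in WT (324 and 192 reads). The difference was 0.28 ± 0.09 (counting SE), 1.21-fold, with a 95% counting interval of 0.09 to 0.46. Setdb2 transcripts made up 13.2% of the summed RPKM of Setdb1 and Setdb2 in MD43 and 11.5% in WT.

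For Setdb2 the reads were few enough to look for the counts of the single libraries. The product of the 2 counts was 105070 in MD43 and 37054 in WT. If the 2 counts of a genotype lay within 2-fold of each other, they were 266 and 395 in MD43 and 191 and 194 in WT, since no other whole factors of these products meet that condition. Which embryo each count belongs to is not known. The products did not fix the relative depth of the 2 libraries of a genotype well enough to scale these counts, so no distance between embryos is given.

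Trim28 encodes the corepressor that joins KRAB zinc finger proteins to SETDB1 and HP1. Trim28 (ENSMUSG00000005566, chromosome 7, 12999114 to 13031035, plus strand) had the highest level of the set, 8.06 log2 RPKM in MD43 and 7.86 in WT. These rest on 24750 and 15472 reads, the most of the 9 genes. Its difference was 0.20 ± 0.01 (counting SE), a level 15.0% higher in MD43, and 17.2% of the well covered genes differed by at least as much. The annotated span begins with a noncoding transcript upstream of the promoter window printed above, and the whole span of Zbtb45 lies within it on the opposite strand without a shared exon base (Zbtb45 differed by 0.03 ± 0.07, counting SE). Trim28 thus had the largest difference relative to its counting error, and the spread between embryos for it is unknown.

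**Figure D2:**
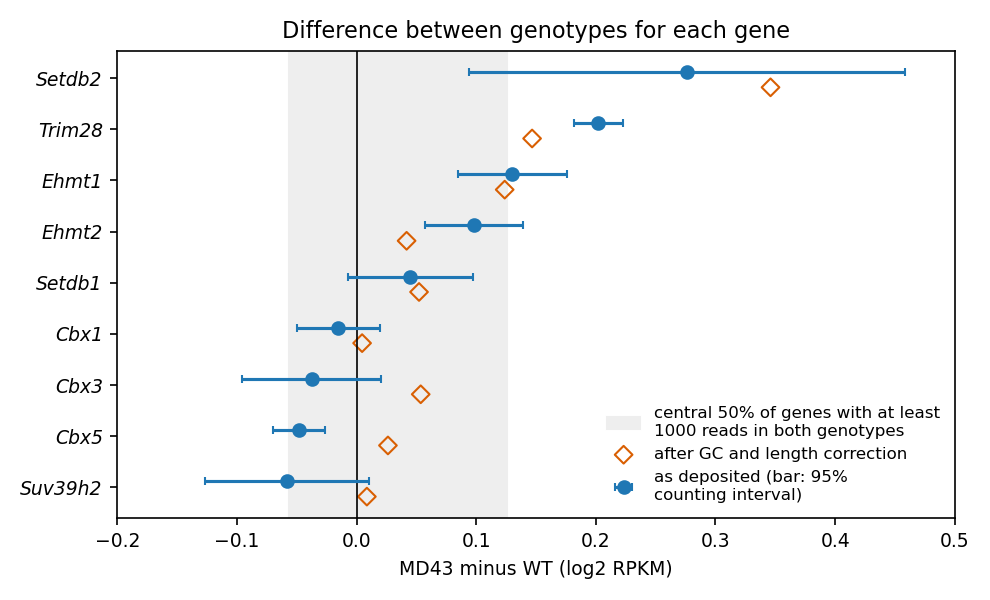
MD43 minus WT difference of each gene in log2 RPKM (horizontal axis). Blue points are the deposited values with bars for the 95% counting interval, orange diamonds are values corrected for GC content and length, and the grey band holds the central 50% of the 3938 well covered genes (-0.06 to 0.13). Setdb2, Trim28 and Ehmt1 lie to the right of the band, and all 9 diamonds lie above 0.

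The 3 HP1 genes encode HP1 beta (Cbx1), HP1 gamma (Cbx3) and HP1 alpha (Cbx5). HP1 alpha and beta are found mainly in pericentric heterochromatin, and HP1 gamma also in euchromatin. Cbx5 (ENSMUSG00000009575, chromosome 15, 103191544 to 103239816, minus strand) was at 6.63 log2 RPKM in MD43 against 6.68 in WT (19985 and 14860 reads), a difference of -0.05 ± 0.01 (counting SE). Cbx1 (ENSMUSG00000018666, chromosome 11, 96789127 to 96808640, plus strand) was at 6.37 in MD43 against 6.39 in WT (7905 and 5744 reads), a difference of -0.02 ± 0.02 (counting SE). Cbx3 (ENSMUSG00000029836, chromosome 6, 51470360 to 51483704, plus strand) was at 4.38 in MD43 against 4.42 in WT (2782 and 2053 reads), a difference of -0.04 ± 0.03 (counting SE). All 3 values were below 0 by less than 1.2-fold, those of Cbx1 and Cbx3 within their counting intervals, and all 3 were above 0 once corrected for GC content and length. Their sum was 203 RPKM in MD43 and 208 RPKM in WT, a log2 difference of -0.03. The annotation holds 8 processed pseudogenes of Cbx3, which were not analysed here, and reads shared with such copies make the level of Cbx3 uncertain.

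The make-up of the HP1 transcripts was nearly equal in the genotypes but depended on the length used for scaling. Per length of all annotated exons, as in the deposited values, Cbx5 made up 49.0% of the summed HP1 level in MD43 and 49.4% in WT. On that scale Cbx1 made up 40.8% and 40.3% and Cbx3 10.2% and 10.3%, in MD43 and WT. Cbx1 and Cbx3 have long annotated exon unions, 2.34 and 3.17 times the longest protein-coding transcript, whereas that of Cbx5 is 1.02 times. Per longest protein-coding transcript, Cbx1 became the most abundant, at 53.7% in MD43 and 53.2% in WT, with Cbx5 at 28.1% and 28.5% and Cbx3 at 18.2% and 18.3%. The order of Cbx1 and Cbx5 was thus set by the length, while no share differed by more than 0.52 percentage points between the genotypes on either scale.

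**Figure D3:**
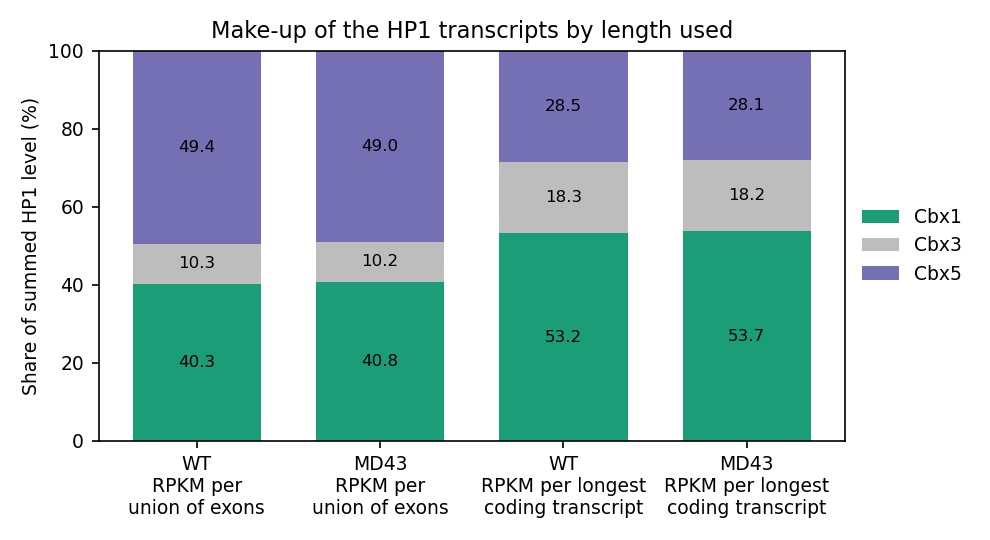
Share of each HP1 gene in the summed level of the 3 (vertical axis, %), in WT and MD43, scaled per union of annotated exons (left pair of bars) and per longest protein-coding transcript (right pair). Each bar adds up to the whole, and the numbers are the shares. WT and MD43 bars of a pair look alike, and the larger part passes from Cbx5 to Cbx1 between the scales.

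The direction of the small differences went with the GC content of the transcripts. Over the 3938 well covered genes, the median difference was -0.04 in the class with the lowest GC content of 5 equal classes (33.9% to 44.0%) and 0.10 in the class with the highest (55.0% to 71.3%). Cbx3, Cbx5 and Suv39h2, with GC contents of 41.1%, 42.6% and 43.0%, were lower in MD43. Trim28 and Ehmt2, with 59.6% and 60.8%, were higher, as was Ehmt1 with 51.2%. Cbx1 with 47.5% was lower by 0.02 and Setdb1 with 49.4% was higher by 0.05. Setdb2, with 42.6%, was the exception among the GC-poor genes.

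Over the 9 genes, Pearson's r between GC content and difference was 0.43, over the 8 without Setdb2 it was 0.88, and over the 3938 genes it was 0.30. Genes of the same libraries are not independent replicates, and these values are a description. Once GC content and exon length were corrected for, all 9 differences were above 0, against 52.6% of the 15485 genes and 65.0% of the well covered genes. The corrected values of Cbx1 (0.0046) and Suv39h2 (0.0086) were far smaller than their counting intervals and below the corrected median of the 15485 genes, 0.01. The corrected values of Trim28, Ehmt1 and Ehmt2 were 0.15, 0.12 and 0.04, that of Setdb2 was 0.35, and those of Cbx1, Cbx3 and Cbx5 were below 0.06. Of the HP1 genes, Cbx5 alone differed by more than its counting interval, and it was lower in MD43 without the correction and higher with it, while Cbx1 and Cbx3 lay within their counting intervals both ways.

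**Figure D4:**
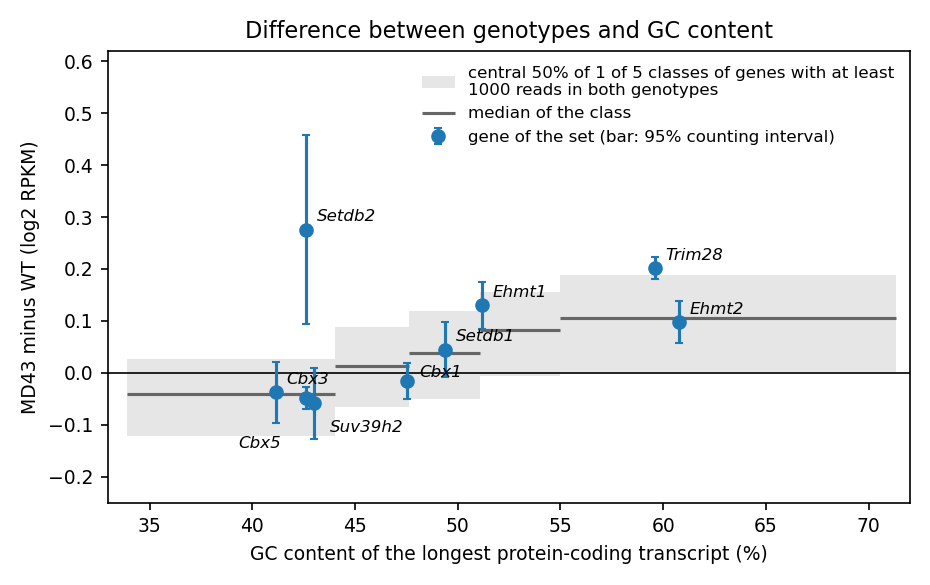
MD43 minus WT difference in log2 RPKM (vertical axis) against the GC content of the longest protein-coding transcript (horizontal axis, %). Blue points are the 9 genes with bars for the 95% counting interval, grey boxes span the central 50% of 5 equal classes of the 3938 well covered genes by GC content, and the dark line in each box is its median. The medians climb from -0.04 to 0.10, and of the 9 genes Setdb2 lies farthest from the box of its class.

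The surroundings of the genes were examined because neighbours can share a promoter or exons. Of the 9 genes, 5 (55.6%) had a gene on the opposite strand starting within 1 kb of their own start, on either side, against 27.1% of the 15485 genes. In all 5 the other gene started upstream. Setdb2 starts 88 bp from Cab39l, which differed by 0.11 ± 0.05 (counting SE). Ehmt2 starts 204 bp from C2, a complement gene, which differed by 0.37 ± 0.10 (counting SE) from 322 and 179 reads. Cbx3 starts 466 bp from Hnrnpa2b1 (-0.06 ± 0.01, counting SE) and Cbx5 616 bp from Hnrnpa1 (-0.12 ± 0.01, counting SE), both genes of abundant RNA-binding proteins. The noncoding start of Trim28 lies 922 bp from Slc27a5, which had fewer than 3 reads in each genotype and is given no fold. In each of the 4 pairs with reads, both genes lay on the same side of 0 in the deposited values, against 55.8% of all 1664 such pairs. The difference of Cbx3 lay within its counting interval, and those of Cbx3 and Cbx5 were above 0 once corrected for GC content and length. Whether the genes of a pair move together was not tested.

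Exons overlapping on the opposite strand could blur a level if reads were counted without strand, and the use of strand in counting was not stated. Setdb1 shares 75 bp of exon with Cers2, which differed by -0.07 ± 0.04 (counting SE) from 1278 and 965 reads. Suv39h2 shares 357 bp with Dclre1c, which differed by -0.05 ± 0.07 (counting SE) from 548 and 407 reads. In both cases the overlap is short beside the exon length of 6853 bp for Setdb1 and 4410 bp for Suv39h2. The part of overlapping reads in their levels was not tested.

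Most partners of the 9 proteins also differed by little. In the 7 lists of partners, relatives and opposing enzymes, 38 of 39 genes had enough reads, and 22 were lower and 16 higher in MD43. Of these, 2 lay past 1.5-fold, both lower, and 0 higher, against backgrounds of 6.4% and 4.27% of the 15485 genes. Among the well covered genes, 0.863% lay past 1.5-fold in either direction. Lower by any amount were 48.9% of the 15485 genes and 40.7% of the well covered genes.

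The partners of SETDB1 and the HUSH complex, which silences integrated retroelements with SETDB1, comprised 6 genes with a median difference of -0.003 (0.03 after the GC and length correction), 3 lower and 3 higher. The most abundant, Pphln1, a HUSH subunit, was at 4.46 in MD43 and 4.60 in WT (-0.14 ± 0.03, counting SE). The 3 partners of G9a and GLP had a median of 0.04 (-0.0041 after that correction), with Wiz, a zinc finger subunit, at 0.04 ± 0.03 (counting SE). Of 9 HP1 partners and H4K20 methyltransferases, 5 were lower and 4 higher, with a median of -0.01. Adnp, a zinc finger protein that binds HP1, was the most abundant and differed by -0.11 ± 0.02 (counting SE).

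Lrif1, whose product binds both HP1 and SMCHD1, was the gene of that list past 1.5-fold. Its level was 0.30 log2 RPKM in MD43 against 0.90 in WT (253 and 275 reads). The difference was -0.59 ± 0.09 (counting SE), 1.51-fold lower in MD43, and after the GC and length correction it was -0.44 and no longer past 1.5-fold. The value lay just past the 1.5-fold limit of 0.585.

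Both TIF1 relatives of TRIM28 were lower, with Trim33, a chromatin reader and ubiquitin ligase, at -0.10 ± 0.03 (counting SE). The 6 KRAB zinc finger genes, whose products recruit TRIM28, had a median of -0.18, with 4 lower and 2 higher and none past 1.5-fold. The median was -0.10 after the GC and length correction and -0.10 among those with 100 or more reads in each genotype. Zfp57, at -0.36 ± 0.05 (counting SE), and Zfp932, at -0.29 ± 0.08 (counting SE), named after their values were seen, were the recruiters past 1.2-fold. Zfp445, which acts on imprinted genes, was the most abundant and differed by -0.10 ± 0.02 (counting SE). Of the other H3K9 methyltransferases, Prdm2, Prdm16 and Mecom were listed. All 3 values were higher, beside 51.1% of the 15485 genes and 59.3% of the well covered genes, with a median of 0.12. Prdm2, the most abundant, stood at 0.22 ± 0.04 (counting SE), and Mecom, at 0.05 ± 0.05 (counting SE), lay within its counting interval.

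Among the enzymes that remove H3K9 methylation, most were lower in MD43. Of 10 demethylase genes 9 had enough reads, and 7 were lower and 2 higher in MD43. Beside this, 48.9% of the 15485 genes and 40.7% of the well covered genes were lower. The median was -0.15, and -0.09 after the GC and length correction. Kdm1a, the most abundant, and Kdm3b, at -0.03 ± 0.03 (counting SE), lay within their counting intervals. Kdm1a was at 5.72 in MD43 and 5.75 in WT (-0.03 ± 0.02, counting SE). Kdm3a, which demethylates mono- and dimethylated H3K9, was the gene past 1.5-fold. It stood at 4.14 log2 RPKM in MD43 against 4.78 in WT (3230 and 3623 reads), a difference of -0.64 ± 0.03 (counting SE), 1.56-fold lower. The other 5 lower genes beside Kdm1a and Kdm3a ran from -0.46 to -0.03. Past 1.2-fold lay 4 of the 9 demethylase genes, against 31.0% of the 15485 genes and 8.96% of the well covered genes. Beside Kdm3a these were Kdm7a (-0.46 ± 0.04), Kdm4c (-0.33 ± 0.07) and Kdm4b (-0.31 ± 0.04, counting SE), named after their values were seen.

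Kdm3a is known to be induced by low oxygen, so other genes of that response were listed after its value was seen. All 12 were lower in MD43, with a median of -0.85, and 10 lay past 1.5-fold. Among them were Bnip3 at -1.58 ± 0.04 (counting SE), Pdk1 at -1.30 ± 0.03 (counting SE) and Vegfa at -0.86 ± 0.04 (counting SE), genes of mitophagy, glucose metabolism and vessel growth. Their part in the Kdm3a result was not tested.

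**Figure D5:**
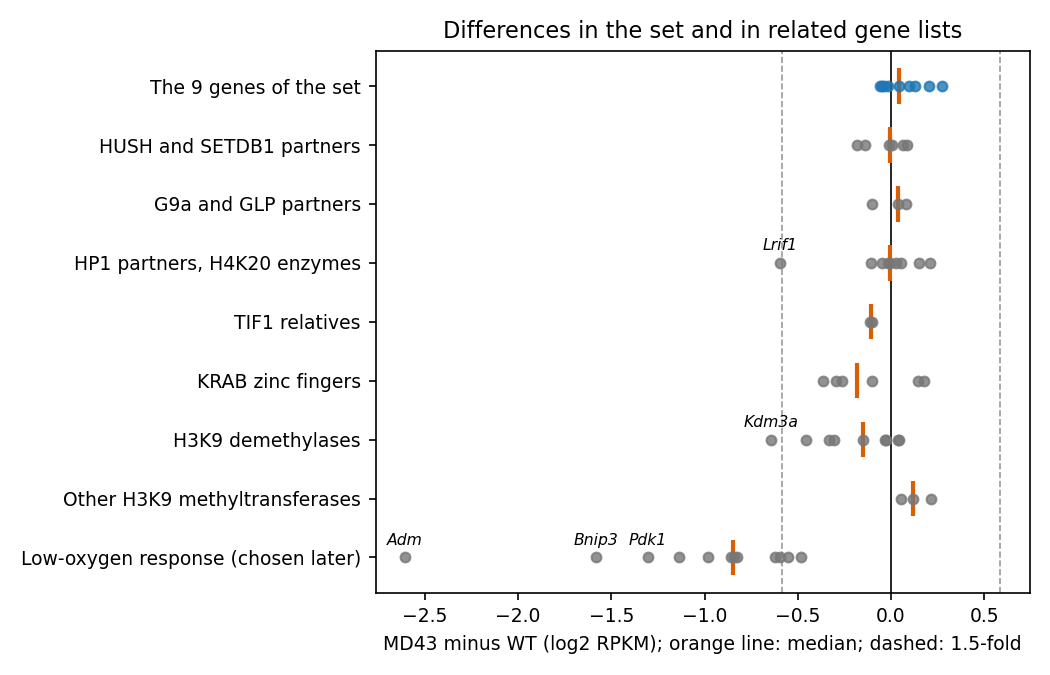
MD43 minus WT difference in log2 RPKM (horizontal axis) of the 9 genes (blue), the genes of 7 related lists and 12 low-oxygen response genes (grey). Each point is 1 gene, orange lines are medians, and dashed lines mark 1.5-fold. The 9 genes lie between -0.06 and 0.28, Kdm3a and Lrif1 lie past the left dashed line, and the 12 low-oxygen genes all lie well to the left of 0.

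Germ line genes listed as silenced through H3K9 methylation were examined as possible targets of the pathway. What keeps them silent in the FNP was not tested. Of 14 listed genes, 4 had no reads in any library, and 5 reached 10 reads in either genotype. Of these 5, 4 were lower in MD43 and 1 was higher, with a median of -0.22 (-0.05 after the GC and length correction), beside 48.9% lower among the 15485 genes. Stag3, a meiotic cohesin subunit and the most abundant, was at 0.02 log2 RPKM in MD43 and 0.27 in WT, a difference of -0.25 ± 0.13 (counting SE). Tdrd1, a piRNA pathway gene, lay past 1.5-fold at 0.62 ± 0.30 (counting SE), from 37.1 and 17.3 reads. The differences of these 5 genes were close to the counting error that so few reads allow.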

How the data were processed

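Poly(A) RNA of 4 FNPs, 2 WT and 2 MD43, was sequenced with a stranded kit from 100 ng of total RNA, per the labels. The authors trimmed reads with Trim Galore 0.4.4, aligned them with HISAT2 2.0.5 to GRCm38 and quantified them in SeqMonk. The deposited log2 RPKM table has 33708 rows on 19 autosomes and 1 merged value per genotype. Its columns of FDR, log-fold change and average hold the authors' own comparison and were not used. Sex chromosome genes were not analysed here.

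The planned use of values per library was not possible, so neither a test nor a replicate error is given. The 9 genes, all lists and the settings were chosen with earlier results of these data known, and the low-oxygen list after Kdm3a was seen. Rows were matched to GENCODE M21 (GRCm38) on symbol and coordinates (33101 rows) or coordinates alone (448). Rows that name no gene (9, 0.0267%) were left out.

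Reads were recovered from genes without reads, which share 1 difference (-0.4758, 38.2% of rows) and, in 97.9% of these, 1 constant after removal of exon length, a library without reads counting as 0.9 reads. Each value then gives the product of the 2 library counts. Of products under 1000, 99.9% were whole to within 0.02, or whole after division by 0.9, in each genotype. On simulated data of 33549 genes, 100.0% of the products were recovered. Intervals are at 95% and, like the counting SE, cover counting error alone. Genes reaching 10 reads in either genotype (15485) formed the background.

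GC content (longest protein-coding transcript) and length (all annotated exons) were corrected by a quadratic fit over these genes, which took up 1.48% of the variance. The alternatives also included pseudocounts (0.1 and 1 RPKM), centring, other filters on reads, limits of 1.2-fold and 2-fold, and other scales for shares. Named genes were the 9, Smchd1, the most abundant gene of each related list and those past 1.5-fold, and neighbours reaching 10 reads. Python 3.11.15, numpy 2.4.6 and pandas 2.3.3 were used.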

Additional observations from a re-analysis of the deposited data

How the results depend on the processing

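No paired analysis was possible because each genotype has 1 merged value, and leaving out a replicate was not possible for the same reason. Pseudocounts and centring on the median gene left all 20 results each within their counting error. The correction for GC content and length moved Ehmt2 to 0.0418, Cbx3 to 0.0536, Cbx5 to 0.0262, Trim28 to 0.147 and Smchd1 to 0.0597, and the number of the 9 genes higher in MD43 to 9. At 1.2-fold the count of the 9 genes past the limit was 1. Shares of recovered reads, which ignore length, were 25.8% in MD43 and 25.4% in WT for Cbx1, 9.07% and 9.06% for Cbx3, 65.2% and 65.6% for Cbx5, 45.1% and 44.5% for Ehmt1 and 8.26% and 7.13% for Setdb2. Per longest protein-coding transcript, a scale chosen after the data were seen, the shares in MD43 and WT were 53.7% and 53.2% for Cbx1, 18.2% and 18.3% for Cbx3 and 28.1% and 28.5% for Cbx5, and 12.1% for Setdb2 in MD43. With a pseudocount of 1 RPKM Setdb2 was at 0.211, under the 1.2-fold limit. Few reads limit Setdb2 (192 in WT), Rsl1 and Zfp809 of the KRAB list (70.0 and 147 in WT) and the germ line genes.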

Other observations

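The 12 low-oxygen response genes belong to no planned comparison. Adm, a vasodilator peptide gene, had the largest difference of them, from 14.3 reads in MD43 and 62.5 in WT, -2.61 ± 0.30 (counting SE). Slc2a1, the main glucose transporter gene, stood at 5.91 log2 RPKM in MD43 and 6.50 in WT, and Ldha, which makes lactate, at 8.98 and 9.53, from 37341 and 39400 reads. All 12 were lower, against 48.9% of the 15485 genes, and 10 lay past 1.5-fold lower, against 6.4%. They were listed after Kdm3a was seen, and the 2 libraries of a genotype cannot be separated.

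Of 12 proliferation genes, 9 were higher in MD43 with a median of 0.06, beside 59.3% higher and a median of 0.03 among the well covered genes. The DNA replication licensing gene Mcm5 was the highest at 0.28 ± 0.02 (counting SE). The histone assembly genes Chaf1a and Chaf1b, singled out after their values were seen, differed by 0.21 ± 0.02 and 0.15 ± 0.03 (counting SE).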
